A study of Mus musculus with 6 samples.

Results

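The heat shock chaperone genes examined here were 10 genes chosen by symbol, namely Hspa1a, Hspa1b, Hspa4, Hspa5, Hspa8, Hsph1, Hsp90aa1, Hsp90ab1, Dnajb1 and Hspb1. All 10 were found among the 23282 entries of the count tables, and all 10 passed the filter on low counts that left 15239 entries for testing. The samples were 6 RNA libraries, labelled as biological replicates, from male C57BL/6J mice aged 8 to 10 weeks, and the RNA came from 1 hemisphere of the forebrain without olfactory bulb and cerebellum. The 3 libraries labelled WAS came from mice kept for 1 h on a platform surrounded by water at 22 °C (water avoidance stress). The 3 libraries labelled control came from mice kept for 1 h on the same platform in a container without water, so both groups had been moved to the platform, and all mice were killed right after the procedure. The comparison asks whether 1 h of psychological stress changed the RNA levels of these genes in the brain.

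Heat shock proteins are molecular chaperones, which bind unfolded or partly folded proteins and help them fold, stay soluble or reach degradation. Hsp70 proteins bind and release clients in a cycle driven by ATP, which Hsp40 (J domain) proteins start and Hsp110 proteins reset by exchanging the nucleotide, while Hsp90 acts later on clients such as steroid receptors and kinases, the glucocorticoid receptor among them. Neurons hold high levels of constitutive Hsp70 and Hsp90, and the inducible members are known to rise through heat shock factors when proteins misfold, with heat, or with other cellular stress.

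Libraries held between 9248520 and 10502029 counts, of which Rn45s, the precursor of ribosomal RNA, made up 4.96% to 7.32%. Values are given as CPM, that is, counts scaled to a common library total. Because the reads come from the 3′ end of each transcript, their number does not grow with transcript length, and levels of different genes can be set side by side. Headings of the count columns began with WC for the group labelled WAS and with WS for the group labelled control, and the sources used here do not define these letters. The sources used here conflict on which group is which, and the sample labels may be exchanged. Each direction given here follows the sample labels and would then be the reverse. Tissue content was described with marker genes. The 6 neuronal markers summed to between 4840 and 5461 CPM in the libraries labelled WAS and between 5612 and 6228 CPM in those labelled control, so the groups did not overlap. Markers of thalamus and midbrain summed to 530.7, 257 and 473 CPM in WAS replicates 1, 2 and 3 and to between 244 and 249 CPM in the control libraries. Cerebellar markers (led by Calb2) summed to 97.3, 58.2 and 89.5 CPM in WAS replicates 1, 2 and 3. In control replicates 1, 2 and 3 they summed to 51.0, 43.4 and 65.6 CPM, so the groups overlapped. Striatal markers lay between 108 CPM (WAS replicate 1) and 1376 CPM (WAS replicate 2), and choroid plexus markers between 16.2 CPM (control replicate 2) and 1239 CPM (control replicate 1). In such bulk tissue, fewer cells of a type and less RNA per cell cannot be told apart, and the part that this uneven tissue content had in the values below was not tested.

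The chaperone genes together made up 0.602%, 0.535% and 0.643% of all counts in WAS replicates 1, 2 and 3 and 0.533%, 0.531% and 0.620% in control replicates 1, 2 and 3. None of the 10 genes separated the labelled groups. In the quasi-likelihood fit of edgeR, with p-values adjusted over all genes tested, 0 of the 10 passed an adjusted p of 0.05, 0 had an unadjusted p under 0.05, and 0 met the study's own criterion of an unadjusted p under 0.05 with a 1.5-fold change. Over all genes tested, 0% passed the adjusted threshold, 7.24% the unadjusted one and 2.49% the criterion of the study. DESeq2 and limma also gave 0 of the 10 at an unadjusted p under 0.05, against 5.82% and 5.70% of all genes, of which 31 passed the adjusted threshold with DESeq2 and 0 with limma. The CPM ranges of the groups overlapped for each of the 10 genes, whereas 12.2% of all genes had no overlap. Adjusted p-values of the 10 genes ran from 0.779 to 0.999. Their log2 fold changes, written for the libraries labelled WAS over those labelled control, lay between -0.038 and 0.36 with a median of 0.064, against a median of 0.00088 over all genes tested. Of the 10 genes 8 lay above 0, as did 50.2% of all genes. This count rested on single libraries. It was 3 of 10 without WAS replicate 3, 5 of 10 without control replicate 1 and 10 of 10 without control replicate 3.

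**Figure D1:**
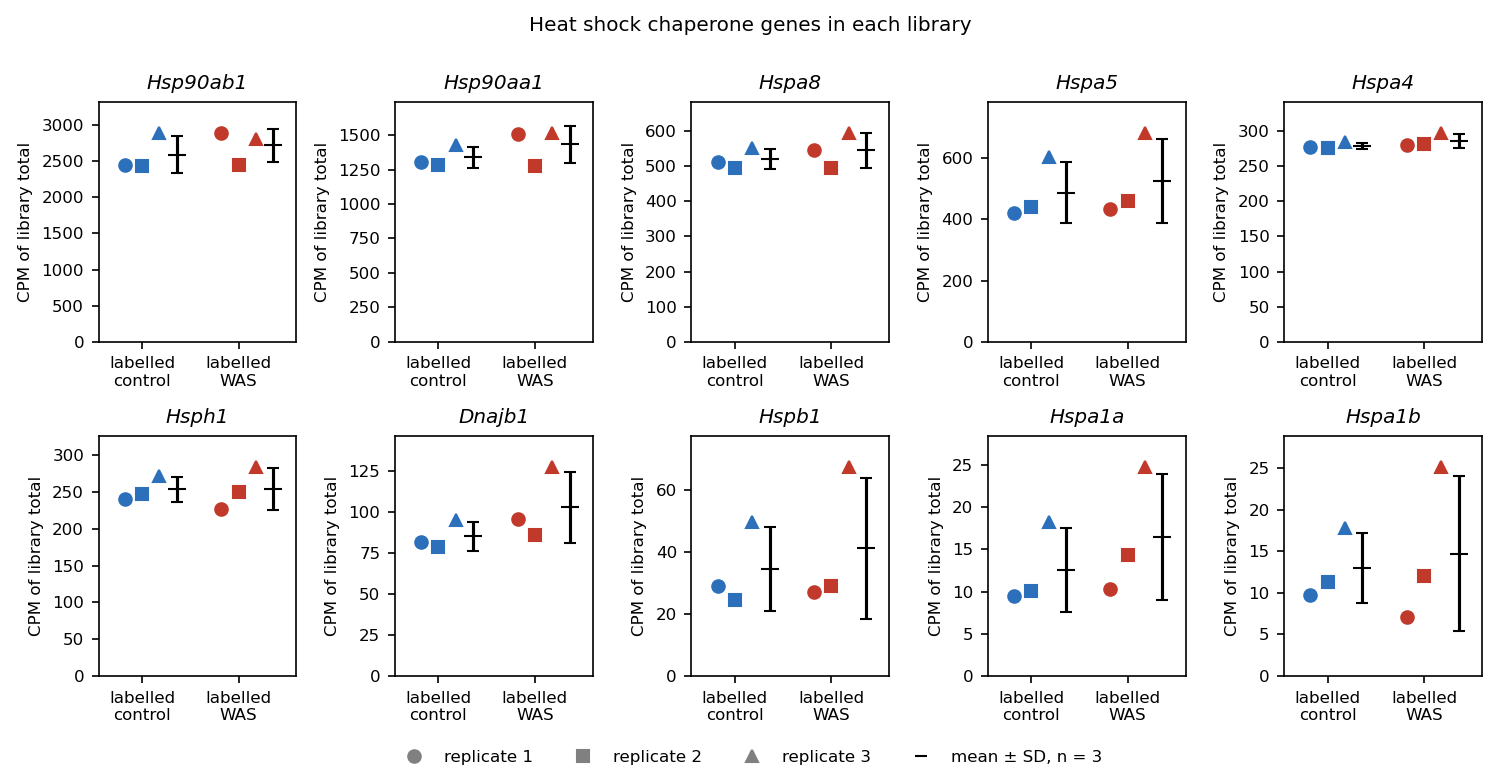
Level of each of the 10 genes in each library, in CPM of the library total on axes that start at 0, with blue for the libraries labelled control, red for those labelled WAS, the marker shape for the replicate number and bars for the mean ± SD of 3 libraries. The groups overlap for each gene, and the replicate 3 library is the highest of its group in both groups for 9 of the 10 genes, Hsp90ab1 being the exception.

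The cytosolic Hsp90 genes were the most abundant members by CPM. Hsp90ab1 (chr17:45567775-45573271, minus strand in GENCODE M21 on mm10), which encodes the constitutive form, was measured at 2889, 2451 and 2808 CPM in WAS replicates 1, 2 and 3 and at 2448, 2439 and 2881 CPM in control replicates 1, 2 and 3. Hsp90aa1 (chr12:110690605-110702728, minus strand), the more inducible form, was measured at 1505, 1275 and 1516 CPM in the WAS replicates and at 1305, 1285 and 1426 CPM in the control replicates. For both genes WAS replicate 2 lay with the lower control libraries, and the other WAS libraries lay near or above control replicate 3. The log2 fold change was 0.031 (95% interval -0.18 to 0.24) for Hsp90ab1 and 0.060 (95% interval -0.14 to 0.26) for Hsp90aa1. A ratio taken inside a library needs no scaling between libraries. Hsp90aa1 counts were 52.7 ± 1.103% of Hsp90ab1 counts under the WAS label and 51.8 ± 2.05% under the control label (SD, n = 3 each). The difference was 0.025 on the log2 scale (two-sided exact permutation test, p = 0.7, where 3 against 3 libraries cannot give a p below 0.1). It was -0.0083 without control replicate 3, whose ratio of 49.5% was the lowest.

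Among Hsp70 genes, the constitutive cytosolic form Hspa8 (Hsc70, chr9:40800984-40810087, plus strand), which serves protein folding and the uncoating of clathrin vesicles at synapses, had 545, 496 and 594 CPM in WAS replicates 1, 2 and 3 and 512, 496 and 550.1 CPM in the control replicates. Hspa5 (BiP, chr2:34771970-34777547, plus strand), the Hsp70 of the endoplasmic reticulum (ER), had 433, 461 and 683 CPM in the WAS replicates and 420.5, 439.8 and 604 CPM in the control replicates. In both groups the library of replicate 3 stood apart for Hspa5, at 1.53 times the mean of the other WAS libraries and 1.40 times the mean of the other control libraries. The log2 fold change was 0.033 (95% interval -0.16 to 0.23) for Hspa8. For Hspa5 it was 0.069 (95% interval -0.32 to 0.46). With 1 library left out it was -0.17 (WAS replicate 3), 0.19 (WAS replicate 1), 0.15 (WAS replicate 2), -0.036 (control replicate 1), -0.00080 (control replicate 2) or 0.26 (control replicate 3). Of the 75-base stretches in the last 500 bases of the Hspa8 transcript, 80.8% also occurred in transcripts of 8 other annotated genes, all of them gene models with Gm names, so the counts of Hspa8 are uncertain.

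The inducible Hsp70 genes were the least abundant members. Hspa1a (chr17:34969190-34972156, minus strand) had 104, 133 and 247 counts in WAS replicates 1, 2 and 3 (10.3, 14.4 and 24.7 CPM) and 99, 104 and 182 counts in control replicates 1, 2 and 3 (9.43, 10.02 and 18.2 CPM). Hspa1b (chr17:34956436-34959238, minus strand) had 71, 111 and 251 counts in the WAS replicates (7.05, 12.002 and 25.1 CPM) and 103, 118 and 178 counts in the control replicates (9.81, 11.4 and 17.8 CPM). These are neighbouring genes with almost the same coding sequence, and 52.7% of the 75-base stretches of the Hspa1a transcript also occurred in that of Hspa1b, but 0 of those in its last 500 bases, where this method reads. Both genes were highest in the replicate 3 libraries, which reached 2.00 and 2.64 times the mean of the other WAS libraries and 1.88 and 1.68 times that of the other control libraries for Hspa1a and Hspa1b, respectively. The log2 fold change was 0.36 for Hspa1a (SE 0.32, 95% interval -0.36 to 1.07). It was 0.14 for Hspa1b (SE 0.38, 95% interval -0.70 to 0.98). Both intervals include a 1.5-fold increase and that of Hspa1b a 1.5-fold decrease, so changes of this size could not be told from none with 3 libraries a group. With 1 library left out, the value for Hspa1a ran from -0.066 (no WAS replicate 3) to 0.73 (no control replicate 3), with 0.60 when WAS replicate 1 was omitted. That for Hspa1b ran from -0.49 (no WAS replicate 3) to 0.48 (no WAS replicate 1), and it was also below 0, at -0.033, when control replicate 1 was omitted. The summed counts of Hspa1a and Hspa1b were 3.19%, 5.32% and 8.40% of those of Hspa8 in the WAS replicates and 3.76%, 4.31% and 6.56% in the control replicates. The difference was 0.14 on the log2 scale (two-sided exact permutation test, p = 0.8). It was -0.20 without WAS replicate 3, -0.027 without control replicate 1, 0.38 without control replicate 3 and 0.50 without WAS replicate 1.

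The Hsp110 genes among the members, whose proteins exchange the nucleotide of Hsp70, differed in spread. Hspa4 (chr11:53259814-53300457, minus strand) had between 279.4 and 297 CPM in the libraries labelled WAS and between 275 and 284 CPM in those labelled control, and its CV (SD relative to the mean) over the 6 libraries was 2.76%. Counting alone would give 1.88%. Hsph1 (chr5:149614287-149636376, minus strand) had 227, 249.6 and 284 CPM in WAS replicates 1, 2 and 3 and 241, 248 and 272 CPM in the control replicates, with a log2 fold change of -0.038 (95% interval -0.26 to 0.18). For Hsph1 the CV over the 6 libraries was 8.23%. WAS replicate 1 was the lowest and the replicate 3 libraries the highest of the 6. For Hspa4 the log2 fold change was -0.0011 (95% interval -0.17 to 0.17), with a sign that turned with the scaling.

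The Hsp40 member, a main partner of inducible Hsp70, was the gene with the smallest p. Dnajb1 (chr8:83608193-83612653, plus strand) had 95.3, 86.0 and 127 CPM in WAS replicates 1, 2 and 3 and 81.8, 78.5 and 95.1 CPM in the control replicates. WAS replicate 3 lay above the other 5 libraries, whereas control replicate 3 lay among the WAS libraries. Its log2 fold change was 0.23 (SE 0.14, 95% interval -0.073 to 0.54), with an adjusted p of 0.779 from edgeR. It was 0.051 without WAS replicate 3, 0.33 without control replicate 3 and 0.35 without WAS replicate 2, where the unadjusted p from edgeR was 0.0162 and the adjusted p 0.205. In that setting 13.7% of all genes had an unadjusted p under 0.05. Over all settings tried the adjusted p of Dnajb1 ran from 0.205 to 0.9997.

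The small heat shock protein gene Hspb1 (Hsp25, chr5:135887919-135889563, plus strand), whose product holds unfolded proteins without ATP, had 27.2, 29.1 and 67.4 CPM in WAS replicates 1, 2 and 3 and 29.1, 24.5 and 49.8 CPM in the control replicates. The 2 replicate 3 libraries stood apart from the other 4, at 2.39 times the mean of the other WAS libraries and 1.86 times that of the other control libraries. The log2 fold change was 0.22 (SE 0.34, 95% interval -0.52 to 0.96). It was -0.33 without WAS replicate 3, 0.59 without control replicate 3, 0.45 without WAS replicate 1 and 0.42 without WAS replicate 2, and 0.10 and 0.026 without control replicates 1 and 2. In its last 500 bases, 10.3% of the 75-base stretches were shared with the annotated pseudogene Hsp25-ps1.

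The promoters were read, to show what the members with the widest spread between libraries hold around their start sites. They came from RefSeq on GRCm38.p6, the assembly called mm10 in the labels, for the 7 members with an entry in the set used. That set held no entry for Hspa8, Hsp90aa1 and Hsp90ab1. A heat shock element is built of nGAAn units in alternating orientation, and the letters GAANNTTC and TTCNNGAA, each its own reverse complement, were searched in the window from 250 bases before to 50 bases after each start. GAANNTTC occurred in 7.86% and TTCNNGAA in 8.52% of 32851 such windows. The ER stress element, CCAAT and CCACG with 9 bases between them on either strand, occurred in 0.119%. The 150 bases before the start are printed for the 3 genes with the widest spread, and 30 bases around the ER stress element for Hspa5, with matches in capitals. They lie at chr17:34972157-34972306 (minus strand) for Hspa1a, chr17:34959239-34959388 (minus strand) for Hspa1b, chr5:135887769-135887918 (plus strand) for Hspb1 and chr2:34772020-34772049 (plus strand) for Hspa5.
Hspa1a: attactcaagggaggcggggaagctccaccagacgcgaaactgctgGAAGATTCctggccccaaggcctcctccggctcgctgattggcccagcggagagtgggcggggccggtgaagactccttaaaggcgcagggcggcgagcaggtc
Hspa1b: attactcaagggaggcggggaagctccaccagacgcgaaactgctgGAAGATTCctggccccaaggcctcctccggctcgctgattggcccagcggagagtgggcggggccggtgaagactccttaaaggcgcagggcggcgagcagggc
Hspb1: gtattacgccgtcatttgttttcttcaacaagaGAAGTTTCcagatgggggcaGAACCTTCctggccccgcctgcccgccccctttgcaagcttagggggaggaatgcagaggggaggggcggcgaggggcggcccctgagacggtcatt
Hspa5: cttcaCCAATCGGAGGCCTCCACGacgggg
The Hspa1a and Hspa1b windows differed at 4 of 300 bases, and each held GAANNTTC once, 104 bases before the start. Hspb1 held it at 117 and 97 bases before the start, and Hspa5 held the ER stress element once, 65 bases before the start. Hsph1, one of the less variable members, held GAANNTTC 41 bases after the first of its listed starts and TTCNNGAA 33 bases before and 36 bases after it. The matches after the start overlapped and formed 3 alternating units (GAA, TTC, GAA or TTC, GAA, TTC, with 2 bases between units), a form found in 0.603% of all windows. The windows of Hspa4 and Dnajb1 held none of these motifs. Only exact matches were searched, so elements that differ from these letters were not counted. A match is a description of the sequence and not evidence of binding.

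**Figure D2:**
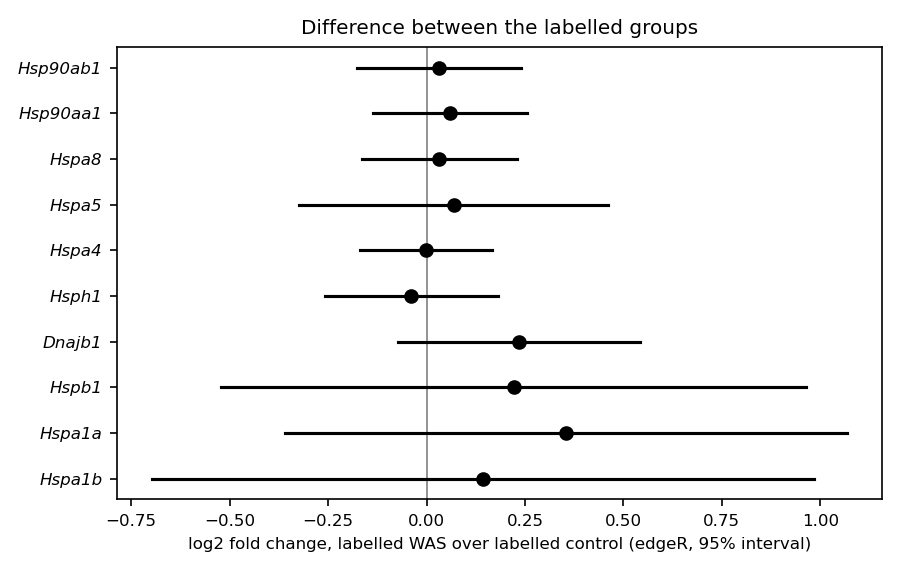
Log2 fold change of each of the 10 genes, labelled WAS over labelled control, from edgeR's quasi-likelihood fit over all genes (point) with its 95% interval (line). Each interval includes 0, and the widest are those of Hspa1b, Hspb1 and Hspa1a.

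In order of level on the CPM scale, Hsp90ab1 was followed by Hsp90aa1, Hspa8, Hspa5, Hspa4, Hsph1, Dnajb1, Hspb1, Hspa1a and Hspa1b. The place of Hspa8 is uncertain, since most of its 3′ end is shared with other annotated genes. The ranges over the 6 libraries overlapped between Hspa8 and Hspa5, between Hspa4 and Hsph1, between Hspb1 and Hspa1a and between Hspa1a and Hspa1b, and did not overlap between the other neighbours. Spread followed another order. The CV within groups was 52.4% for Hspa1b, 49.3% for Hspb1, 43.4% for Hspa1a and 23.7% for Hspa5, followed by 17.5% for Dnajb1, and it lay between 2.69% and 9.20% for the other 5 genes. The median over all genes tested was 14.1%. Counting alone would give 8.49% for Hspa1b, 8.31% for Hspa1a and 5.14% for Hspb1, which is well below the spread measured.

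In these genes the libraries of replicate 3 held the high values. The replicate 3 library was the highest of its group in both groups for 9 of the 10 chaperone genes, which held for 10.6% of all genes tested. For 7 of them, Hspa1a, Hspa1b, Hspa4, Hspa5, Hspa8, Hsph1 and Hspb1, both replicate 3 libraries lay above all other 4 libraries, against 5.23% of all genes tested. The median ratio of replicate 3 to the mean of the other libraries of its group was 1.30 in the libraries labelled WAS and 1.18 in those labelled control for the chaperone genes, and 0.996 and 0.976 for all genes tested. The pattern was noticed after the values were seen, and the labels do not say what libraries of 1 number share. Beside it, 5 blood markers (led by Hba-a1) summed to 2138, 1695 and 2832 CPM in WAS replicates 1, 2 and 3 and to 1540.2, 1678 and 1991 CPM in the control replicates. The 6 markers of meningeal fibroblasts (led by Igf2) summed to 188, 139 and 199 CPM and to 131, 88.3 and 148 CPM in the same order. Both marker sums were thus highest in replicate 3 of each group. No other marker list examined had this order, and both were picked after the values were seen. Their part in the chaperone values was not tested. With both replicate 3 libraries left out, 7 of the 10 genes lay above 0 on the log2 scale (median 0.035), and 0 passed an unadjusted p of 0.05, against 4.13% of all genes.

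**Figure D3:**
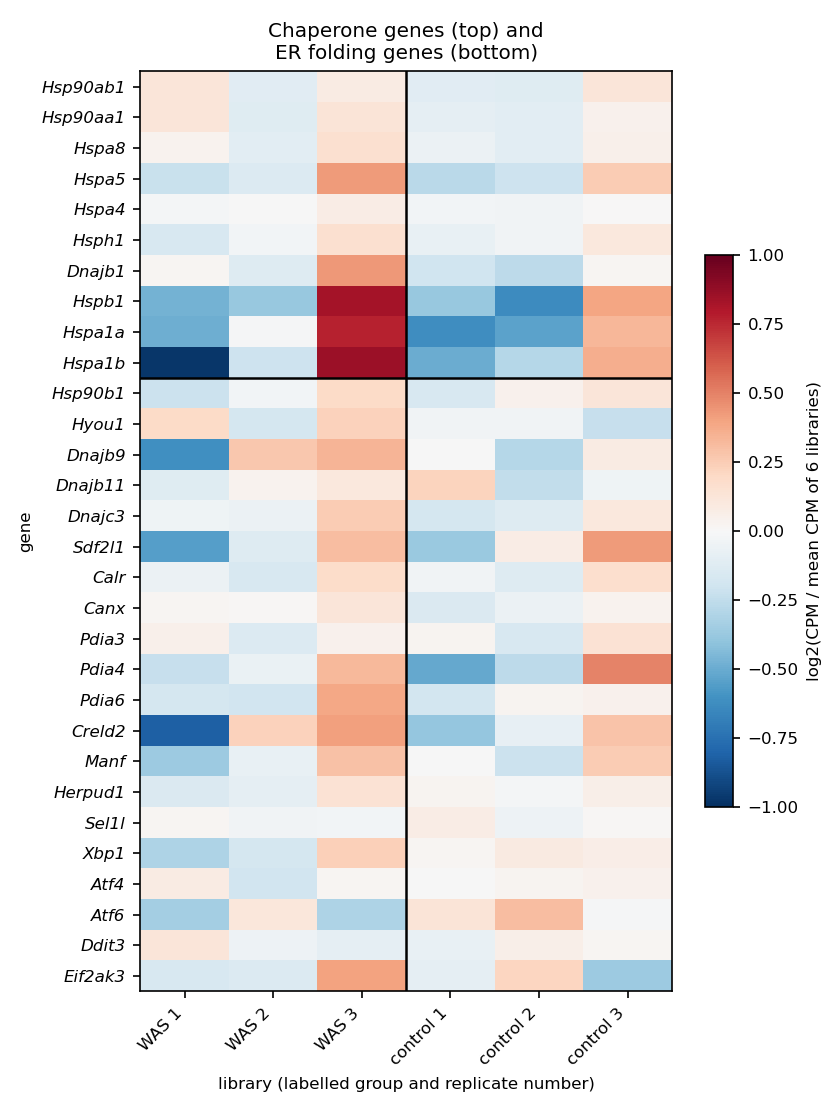
Colour gives log2 of the CPM of a library over the mean CPM of the 6 libraries, for the 10 chaperone genes (above the black line) and 20 of the 21 ER folding genes (below it, Ern1 being left out for its low counts), with the libraries labelled WAS on the left and those labelled control on the right. Columns of replicate 3 are red in both groups for Hspa5, Hspb1, Hspa1a and Hspa1b, and for ER folding genes such as Sdf2l1, Pdia4, Creld2 and Manf.

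The ER folding genes, which encode the partners of Hspa5 and the sensors and effectors of the unfolded protein response, were counted in the same way. Of 21 such genes, 10 had both replicate 3 libraries above the other 4, namely Hsp90b1, Dnajc3, Sdf2l1, Calr, Canx, Pdia4, Pdia6, Creld2, Manf and Herpud1. Hsp90b1, the Hsp90 of the ER, had 292, 333 and 388 CPM in WAS replicates 1, 2 and 3 and 304, 349 and 369 CPM in the control replicates. Creld2 had 6.06, 12.5 and 14.2 CPM in the WAS replicates and 8.19, 10.1 and 13.0 CPM in the control replicates, and Pdia4, a disulfide isomerase, had 22.4, 25.2 and 33.1 CPM against 18.6, 22.0 and 37.2 CPM. Creld2 and Pdia4 were picked after their values were seen. This order was found for 0 of 10 chaperonin genes, 2 of 19 other Hsp40 genes (Dnajb4 and Dnajc3), 3 of 19 cochaperone genes (Stip1, St13 and Chordc1), 1 of 9 other Hsp70 genes (Hspa4l) and 1 of 5 other small heat shock protein genes (Cryab). It was found for 1 of 2 other Hsp90 genes (Hsp90b1), 0 of 5 heat shock factor genes and 0 of 2 genes of cold-induced RNA binding proteins. By the wider measure, replicate 3 highest within each group, the count was 11 of 21 for ER folding genes and 6 of 10 for chaperonin genes, so the order of these lists depended on the measure. Lists differ in size and share some genes, and no test between them was made.

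**Figure D4:**
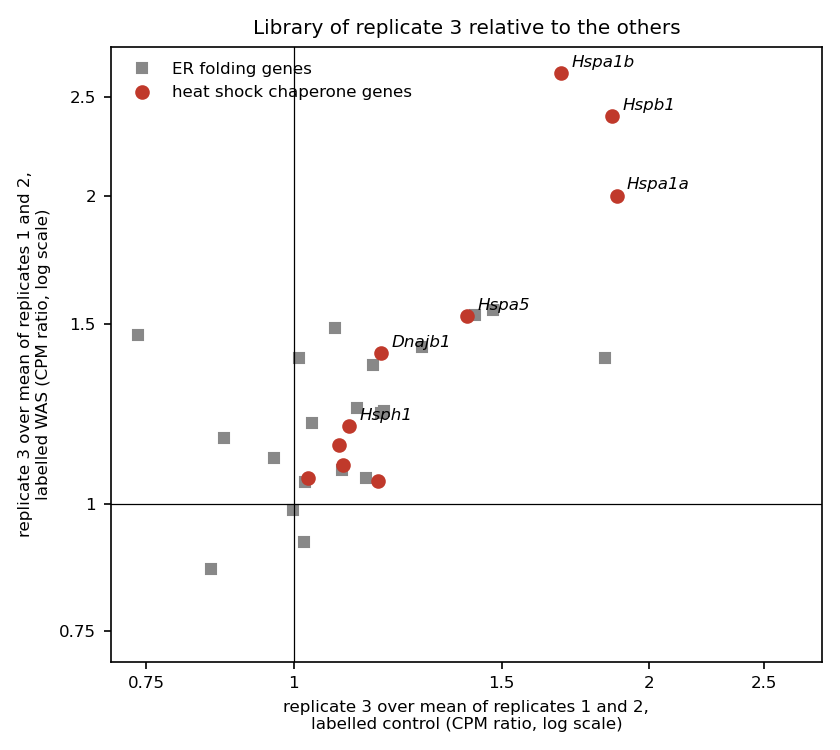
Ratio of the CPM of replicate 3 to the mean CPM of replicates 1 and 2, in the libraries labelled control (horizontal, log scale) and labelled WAS (vertical, log scale), for the 10 chaperone genes (red circles) and 20 ER folding genes (grey squares). All 10 chaperone genes lie above 1 on both axes, and Hspa1b, Hspb1 and Hspa1a lie farthest out among them.

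Profiles over the 6 libraries were also compared by the root mean square difference of centred log2(CPM + 1), a measure that is 0 for profiles of the same shape. Within the chaperone genes the closest pairs were Hspa8 and Hsp90aa1, and Hsp90aa1 and Hsp90ab1, at 0.039 each. Among 9399 other genes with a mean of at least 10 CPM, those closest to Hspa5 were Snapc1 (0.063), Rnd3 (0.094) and Smoc2 (0.098), where the spread of Hspa5 itself was 0.27. Snapc1, a subunit of a complex that activates small nuclear RNA genes, had 25.6, 25.4 and 38.5 CPM in WAS replicates 1, 2 and 3 and 25.1, 25.2 and 32.0 CPM in the control replicates. Hspa8 was closest to Nfia, Prkar1a and Pmm1 (0.025, 0.026 and 0.028), and Hsph1 to Pou3f3, Gatsl2 and Atp5a1 (0.027, 0.031 and 0.032). The spread of Hspa8 itself was 0.094 and that of Hsph1 0.107. Genes of small spread lie close by this measure, so values for genes of unlike spread are not comparable. These are descriptions over 6 libraries.

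The wider chaperone system was described by 9 lists of 91 different genes, of which 87 were tested. In the edgeR fit 4 of these 87 had an unadjusted p under 0.05 with the higher level under the WAS label, 1 had one with the lower level, and 0 passed the adjusted threshold. Over all genes tested, 586 (3.85%) were higher and 518 lower at that unadjusted threshold. With scaling to the total count the split over all genes was 831 higher and 337 lower with the median log2 fold change of all genes at 0.038, and without Rn45s in the total it was 783 and 368. For the 87 genes the median log2 fold change was 0.028, and 55 lay above 0. The genes named next as passing did so without adjustment only.

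Among 9 other Hsp70 and Hsp110 genes, 2 passed. Hspa2, an Hsp70 known from male germ cells and also present in brain, had 79.9, 76.8 and 92.2 CPM in WAS replicates 1, 2 and 3 and 74.5, 58.2 and 65.7 CPM in the control replicates, with no overlap and a log2 difference of 0.29 (SE 0.11, edgeR adjusted p = 0.625). Hspa12a, an atypical family member, had 164, 144 and 157 CPM against 139, 134 and 121 CPM, also without overlap, a difference of 0.20 on the log2 scale (SE 0.087, adjusted p = 0.670). Over all genes, 8.42% had each library labelled WAS above each labelled control. The mitochondrial Hsp70 gene Hspa9 had 157 ± 6.39 CPM under the WAS label and 152 ± 5.27 CPM under the control label (SD, n = 3 each). Neither of the 2 other Hsp90 genes passed, with Hsp90b1 at a log2 fold change of -0.050 and the mitochondrial Trap1 at 0.076.

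Of 19 other Hsp40 genes tested, 1 passed. Dnajb3 had 33, 33 and 25 counts in WAS replicates 1, 2 and 3 and 14, 13 and 19 counts in the control replicates, which did not overlap and differed by 1.02 on the log2 scale (SE 0.36, edgeR adjusted p = 0.595). The sources used here conflict on the direction of this gene, which is given by the sample labels and would be the reverse if they were exchanged. The abundant Dnaja1, a cytosolic Hsp40, had 308 ± 20.6 CPM against 286 ± 14.6 CPM (SD, n = 3 each), and the synaptic vesicle protein gene Dnajc5 had 274 ± 17.7 CPM against 248 ± 7.09 CPM (SD, n = 3 each). Of 5 other small heat shock protein genes tested, Hspb8 passed, with 31.4, 30.8 and 45.4 CPM in the WAS replicates and 21.8, 20.6 and 30.7 CPM in the control replicates. On this scale, the library total, its lowest WAS library lay just above control replicate 3. From TMM-scaled counts the log2 difference was 0.52 (SE 0.19, edgeR adjusted p = 0.616), or 0.31 without WAS replicate 3. Hspb8 acts with Bag3 in the clearance of misfolded proteins, and Bag3 had 9.24, 7.79 and 11.7 CPM against 7.33, 5.97 and 9.02 CPM, with overlapping groups. Both were highest in replicate 3 of each group, and Bag3 was picked after its values were seen. The lens and glial chaperone gene Cryab had 139, 139 and 207 CPM in the WAS replicates and 142, 135 and 147 CPM in the control replicates.

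No chaperonin gene passed, although all 10 lay above 0 on the log2 scale (median 0.076), from 0.013 for Cct7 to 0.14. Above 0 lay 50.2% of all genes, 13 of 19 cochaperone genes, 11 of 19 other Hsp40 genes and 8 of 21 ER folding genes. For the chaperonin genes it was again 10 of 10 in the fits with another scaling, tool or filter. It was 9 of 10 when WAS replicate 1 or a control library (replicate 1 or 2) was left out, and 8 of 10 without both libraries of replicate 1. Of 19 cochaperone genes, 0 passed. The most abundant were Ahsa2 (log2 fold change 0.0060) and Ptges3 (0.15), the p23 partner of Hsp90. Of 5 genes of heat shock factors and their binding partner, 0 passed. Hsf1, the main activator of heat shock genes and outside the rule for naming, was at 16.0 ± 2.02 CPM against 16.9 ± 0.226 CPM (SD, n = 3 each). Hsbp1, which binds Hsf1, was at 247 ± 19.0 CPM against 237 ± 14.2 CPM (SD, n = 3 each), and Hsf2 at 43.9 ± 4.34 CPM against 40.1 ± 5.29 CPM (SD, n = 3 each).

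Of 21 ER folding genes, 1 passed. Atf6, a membrane-bound sensor of the unfolded protein response, had 44.3, 60.9 and 45.4 CPM in WAS replicates 1, 2 and 3 and 61.5, 69.5 and 55.7 CPM in the control replicates, so the groups overlapped through WAS replicate 2. The log2 difference was -0.35 (SE 0.14, edgeR adjusted p = 0.631), and without WAS replicate 2 it was -0.51 with an adjusted p of 0.0269, in a setting where 491 genes (3.22% of all) passed that threshold. For this gene the adjusted p over all settings ran from 0.0269 to 0.9997. Atf4, a transcription factor of the integrated stress response, had a log2 fold change of -0.086 (SE 0.089). The cold-induced RNA binding protein genes were included because body temperature moves them in the direction opposite to heat shock genes. Cirbp had 75.1, 69.5 and 67.7 CPM in the WAS replicates and 59.5, 54.4 and 65.5 CPM in the control replicates, without overlap on this scale. From TMM-scaled counts its log2 fold change was 0.21 (SE 0.10, edgeR adjusted p = 0.709). Its unadjusted p from edgeR was 0.0647, and 0.0319 with total-count scaling, where 7.66% of all genes had one under 0.05. Rbm3 had 29.8 ± 3.20 CPM against 29.99 ± 1.11 CPM (SD, n = 3 each).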

How the data were processed

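RNA of 6 forebrain samples was measured by 3′ end sequencing (QuantSeq, single-end, 75 bp). The authors aligned the reads with Bowtie2 and made the deposited read counts per gene symbol with Bedtools from unique and multiple alignments, on mm10 per the labels, so near-identical genes can share reads. Groups came from the sample labels. Counts were TMM-scaled and fitted by quasi-likelihood in edgeR (4.0.16, R 4.3.3) with no replicate block, on 15239 genes with a mean log2(quantile-normalized count + 1) of at least 2. Benjamini-Hochberg adjustment covered all genes tested. Standard errors are the log2 fold change over the square root of F, and 95% intervals use the degrees of freedom of the fit. CPM are relative to the library total, between 9248520 and 10502029 counts, which bounds counting error only. Nothing says how libraries were handled in batches. Alternatives used total-count scaling, DESeq2 1.42.0, limma 3.58.1, other filters, a replicate block and left-out libraries. The method was tested on simulated data. Named genes were the 10 members and, unless stated, the 2 genes of each list with the highest level or any with an unadjusted p under 0.05. Members and lists were chosen with earlier results of these data known. Shared 75-base stretches were counted in GENCODE M21 transcripts, whole or in the last 500 bases.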

Additional observations from a re-analysis of the deposited data

How the results depend on the processing

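No chaperone gene passed an adjusted p of 0.05 in any setting, though DESeq2 gave no adjusted p for Hspa1a and Hspa1b. At an unadjusted p under 0.05 there was 1 (Dnajb1, log2 fold change 0.22, unadjusted p 0.0304 and adjusted p 0.461 from edgeR) with the replicate block, against 9.37% of all genes, and between 0 and 1 with libraries left out. For the 87 genes of the other lists, against 5 such genes there was 1 with limma (5.70% of all genes) and between 1 and 8 with libraries left out (4.09% to 13.7% of all genes), the 8 arising without WAS replicate 2, where 13.7% of all genes passed. With libraries left out, the adjusted threshold gave between 0 and 1 (Atf6). The numbers were not taken to pair the samples, since same-numbered samples had correlations of their deviations from the group means of 0.066, 0.085 and 0.087 over all genes, none above 0.1. Over all genes each library correlated best with its own number, which is a hint from the data and not part of the design. Over the 10 chaperone genes the correlations were 0.925, 0.738 and 0.932. The replicate 3 pattern had already been seen in these genes, so these values restate it and are no separate hint of pairing. Among all genes, 49 passed an adjusted p of 0.05 with the replicate block in place of 0, 31 with DESeq2, 491 without WAS replicate 2 and 194 without both libraries of replicate 2. The criterion of the study gave 825 without WAS replicate 2 in place of 380. Under the replicate block the log2 ratio differences were 0.025 for Hsp90aa1 to Hsp90ab1 and 0.14 for Hspa1a plus Hspa1b to Hspa8, with exact sign-flip p of 1 and 0.5, where 3 pairs cannot give less than 0.25.

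Signs turned for Hspa4 with total-count scaling (0.036), the total without Rn45s (0.032), limma (0.022) and filterByExpr (0.00056), and for Hspa1b with limma (-0.015). The ratio of Hspa1b alone to Hspa8 gave -0.035. With libraries left out, single or, as an alternative chosen after seeing the data, both of 1 number, log2 fold changes ran from -0.066 to 0.73 for Hspa1a, -0.49 to 0.48 for Hspa1b, -0.031 to 0.020 for Hspa4, -0.17 to 0.26 for Hspa5, -0.035 to 0.096 for Hspa8, -0.13 to 0.033 for Hsph1, -0.0099 to 0.14 for Hsp90aa1, -0.069 to 0.12 for Hsp90ab1, 0.051 to 0.35 for Dnajb1 and -0.33 to 0.59 for Hspb1. The ratio differences ran from -0.0083 to 0.045 and from -0.20 to 0.50. The cause was not tested. Removing Rn45s from the total raised 5 of 20 group means by more than 1 SD. Among the 10 chaperone genes, depth limits Hspa1a and Hspa1b most, at 71 to 251 counts a library.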
